A study of Mus musculus with 4 samples.

Results

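Immune cells of the mouse mammary gland were compared between 2 samples of 1 hash-tagged droplet library, the later of the 2 in the series: the sample named Regression (tag HT9) and the sample named Involution (tag HT8). A barcode counted as a cell if it had at least 500 UMIs (unique molecular identifiers, each standing for 1 captured RNA molecule) from at least 300 genes, with mitochondrial genes taking no more than 10%. A cell was given the tag with the most counts among 7 tags if that tag had at least 5 counts and at least 2 times the count of the next one. The rule gave 3284 Regression cells and 2541 Involution cells, 5825 of the 17447 cells with an assigned tag and of the 21177 cells that passed the filters. Both samples are CD45+ cells (CD45 is the surface protein of blood-derived cells) released from the gland with collagenase. They differ in the stage named on the sample sheet. The sources used here give neither the strain, the age and the number of animals under a tag nor the days after weaning. The other 5 tags of the library, named Gestation (HT5), Lactation (HT6), Balb/c (HT10), Germ-free (HT2) and GF (HT12), enter below only as a range against which the 2 samples are read. Each sample is 1 pooled sample, so no comparison has a replicate or a p-value. All intervals are 95% intervals for counting error, and a gene is called different when its summed UMIs differ by at least 2.0-fold.

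Involution is the phase after weaning in which the milk-producing epithelium dies and is cleared, the fat pad refills and the ducts remain. Macrophages take up dying cells and milk remnants and remodel the matrix, while B cells, plasma cells and T cells of the gland supply antibody and guard the epithelium. The sheet does not define Regression further. The name is used here for the sample and not for a dated stage.

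The tags are antibodies that carry a short DNA barcode, so the comparison rests on telling 2 barcodes of 15 bases apart. They are shown here as the authors' tag reference gives them, 5′ to 3′, with capitals at the 13 positions at which they differ.
HT8 (Involution): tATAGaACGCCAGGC
HT9 (Regression): tGCCTaTGAAACAAG
The median cell carried 30 counts of its own tag in the Involution sample and 68 in the Regression sample, against a median of 2 counts of the next tag in both.

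The 2 samples were read to similar depth. The Involution cells held 11089065 UMIs in all and the Regression cells 14390161. The median cell had 3253 UMIs from 1468 genes in the Involution sample and 2846 UMIs from 1365.5 genes in the Regression sample. Scrublet, which scores each cell against simulated mixtures of 2 cells, called doublets in 106 Involution cells (4.17%) and 332 Regression cells (10.1%). These were removed, which left 2435 and 2952 cells. Of the barcodes in the library, 141 (0.652%) also had at least 500 UMIs in the earlier library, and 40 of them belong to the cells compared here.

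B cells made up a larger share of the gland's immune cells in the Regression sample. B-like cells, all of which fell in 1 cluster led by Ms4a1, Cd79a and Cr2, were 570 of the Involution cells, 23.4% (21.7 to 25.1), and 1134 of the Regression cells, 38.4% (36.7 to 40.2). The difference was 15.0 percentage points (12.6 to 17.4), and the Regression share lay above those of all other tags, which ran from 2.96% to 26.3%. T-like cells went the other way, with 732 Involution cells, 30.1% (28.2 to 31.9), and 648 Regression cells, 22.0% (20.5 to 23.5), a difference of -8.11 points (-10.5 to -5.76). Monocyte-like cells, led by Chil3 and Ace, were 93 cells, 3.82% (3.09 to 4.66), in the Involution sample and 51 cells, 1.73% (1.29 to 2.27), in the Regression sample, which is below the range of the other tags (2.59% to 7.44%). Macrophage-like cells were 14.2% (12.8 to 15.6) and 12.2% (11.1 to 13.5), a difference of -1.94 points (-3.77 to -0.128). That difference turned to 2.89 points when the own-tag minimum was raised to 20 counts, so its direction depends on the tag rule. The median own-tag count was 39 in T-like, 24 in B-like, 22 in monocyte-like and 20 in macrophage-like Involution cells. In the Regression sample it was 98, 57, 50 and 64. Plasma-like cells, described below, had 12 and 43. In the library, 1948 cells that passed the filters had a top tag under 5 counts. Whether the tag rule left out more cells of some classes was not tested.

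Shares are tied to each other, since more B cells lower every other share. With B-like cells taken out of the total, T-like cells were 39.2% and 35.6% (-3.61 points, -6.72 to -0.479) and monocyte-like cells 4.99% and 2.81% (-2.18 points, -3.45 to -0.935). Macrophage-like cells were then 18.5% and 19.9%, with an interval of the difference on both sides of 0 (-1.18 to 3.9). Natural killer (NK)-like cells, 5.83% and 5.62% of all cells, differed by -0.208 points (-1.48 to 1.03). Cells of 2 clusters that have no type name and carry Itgae among their leading genes, 1 of them with Gzmb, were 3.70% and 2.47% of all cells (-1.22 points, -2.19 to -0.30). Without B-like cells in the total they were 4.83% and 4.02%, with an interval of the difference on both sides of 0 (-2.15 to 0.527), and NK-like cells were 7.61% and 9.13% (-0.274 to 3.32). Conventional dendritic cells, migratory dendritic cells and plasmacytoid dendritic cells together were 5.54% and 4.30%. Innate lymphoid type 2-like cells (23 and 25), mast or basophil-like cells (20 and 24) and neutrophil-like cells (14 and 19) were few in both samples.

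**Figure D1:**
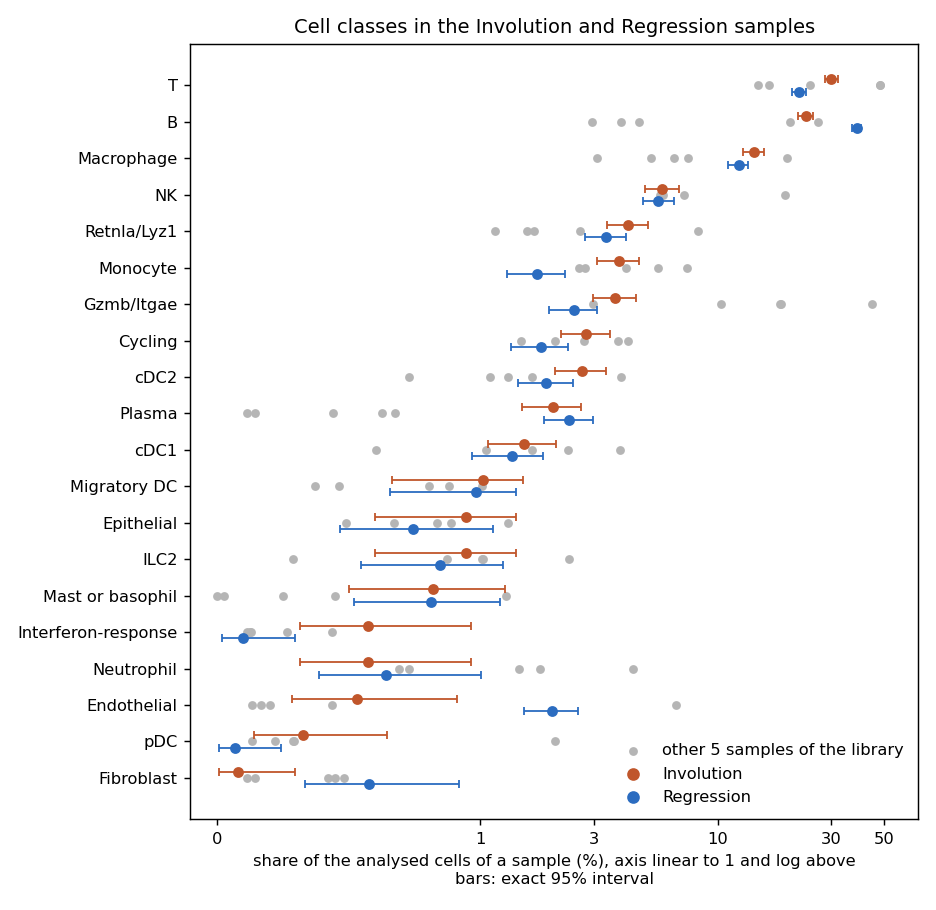
Share of each cell class among the analysed cells (percent, x axis, linear to 1 and log above) in the Involution and the Regression sample, with exact 95% intervals as bars and the other 5 tags as grey points. B-like cells stand at 23.4% and 38.4%, and T-like cells at 30.1% and 22.0%.

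For B and T cells the same order appeared without clustering. This was read from the share of cells with at least 1 UMI of a marker. Each cell was first thinned to 1000 UMIs, which equalises depth. Thinning kept 2374 Involution and 2829 Regression cells and left out 61 and 123 shallower ones. Cd79a, a signalling chain of the B cell receptor, was found in 22.9% of Involution and 37.5% of Regression cells (14.6 points, 12.1 to 17.1), and in 29.7% and 45.0% without thinning. In T-like cells, which should lack it, thinned Cd79a was found in 2.07% and 1.72%. All 7 B cell markers had higher shares in the Regression sample and all 8 T cell markers lower ones. Cd3d, a chain of the T cell receptor complex, was found in 18.8% and 13.4% (-5.43 points, -7.45 to -3.43), against 1.43% and 1.56% of B-like cells. Csf1r, the growth factor receptor of macrophages and monocytes, was found in 12.7% and 9.0% (-3.74 points, -5.46 to -2.05), against 2.33% and 1.74% of B-like cells. The macrophage markers did not move as 1 group: 7 of the 8 had lower shares in the Regression sample, with intervals below 0 for Csf1r, C1qc and Adgre1 only, and Apoe had a higher one (1.70 points, -0.864 to 4.26). NK markers leaned lower in the Regression sample, while the NK-like share differed by only -0.208 points (-1.48 to 1.03). Ncr1, an NK marker, was found in 4.09% and 2.76% (-1.33 points, -2.36 to -0.341). Klrb1c and Prf1 also had intervals below 0, and Klre1, Klra8 and Gzma had intervals on both sides of 0. Eomes had a higher share (0.546 points, -0.469 to 1.54). The B-like cells had median depths of 2005 and 1940 UMIs, and the T-like cells 3220 and 3106.

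Plasma cells, which secrete antibody and in this gland feed IgA into milk, were present in both samples. Plasma-like cells numbered 49, 2.01% (1.49 to 2.65), in the Involution sample and 70, 2.37% (1.85 to 2.99), in the Regression sample, against 0.115% to 0.676% under the other 5 tags. Their leading genes include immunoglobulin genes that differed between the samples, so the 2 shares are given without a reading. In 44 of the 49 Involution cells (89.8%, 77.8 to 96.6) and 67 of the 70 Regression cells (95.7%, 88.0 to 99.1), the heavy chain gene with the most UMIs was Igha, which encodes IgA. The remaining Involution cells had Ighm in 2 and Ighg2b in 3, and the remaining Regression cells had Ighg1 in 2 and Ighg3 in 1. The Ighg genes are paralogs, and whether reads were split between them was not tested. Of the 45 plasma-like cells of the other 5 tags together, 32 had Igha on top. The isotype count was chosen after the data were seen.

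Cells outside the CD45+ gate came through in small numbers. Endothelial-like cells, led by Fabp4, Aqp1 and Cdh5, were 13 (0.534%) in the Involution sample and 59 (2.00%) in the Regression sample, a difference of 1.46 points (0.88 to 2.08) within the range of the other tags (0.134% to 6.69%). Cdh5, the endothelial cadherin, was found in 0.548% and 1.34% of all thinned cells, against 0.537% and 0.275% of B-like cells, so the Involution value is at the background. Fibroblast-like cells were 2 and 17. Epithelial-like cells were 23 and 22, and milk protein genes took 571 and 2528 of every 10000 of their UMIs. Single cells decided these levels: 1 cell held 66.5% of the milk protein UMIs in the Involution sample and 1 cell held 51.2% in the Regression sample. The median cell gave 2.21% and 1.64% of its UMIs to milk proteins, with ranges of 0.0494% to 17.9% and 0.00804% to 59.2%. More than 10% was reached by 2 and 5 cells. These epithelial values were also chosen after the data were seen.

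Within the B-like cells, genes of 3 kinds stood lower in the Regression sample: immediate early genes, heat shock genes and interferon-stimulated genes. Among 5031 genes with at least 100 UMIs over both samples, 33 (0.656%) were at least 2.0-fold higher in the Involution sample and 9 (0.179%) in the Regression sample. The second count was 23 with doublets kept. The sums held 1248468 and 2481977 UMIs. Immediate early genes encode transcription factors and feedback regulators that cells switch on within minutes of a stimulus. Of the 12 tested members of the list, all had a ratio below 1 (45.3% of all tested genes did) and 6 were past 2.0-fold. The Regression sample was the lowest of all 7 tags in 10 of the 12, which was so for 5.55% of all tested genes. Under the other tags, B-like cells numbered 32 in Lactation, 70 in Balb/c, 89 in Germ-free, 589 in GF and 699 in Gestation. The median Lactation cell carried 7 counts of its own tag. The summed list took 53.3 of 10000 UMIs in the Involution sample and 27.3 in the Regression sample, a ratio of 0.51 (0.50 to 0.53), with a range of 44.6 to 87.5 under the other tags. The median log2 ratio was -1.0, and over all tested genes it was between 0.01 and 0.06 in each class.

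Junb, a subunit of the AP-1 transcription factor, had 1429 UMIs in the Involution B-like cells and 958 in the Regression ones, or 11.4 and 3.86 per 10000. Its level was 9.48 in GF, 10.5 in Gestation, 13.4 in Balb/c, 18.7 in Lactation and 23.7 in Germ-free, so the Regression sample stood alone at the low end and the Involution sample among the rest. The Involution level was 2.97-fold higher (2.73 to 3.22). Fos, another AP-1 subunit, was at 3.45 and 1.38 (2.50-fold, with 3.26 to 9.04 under the other tags). Nr4a1, which antigen receptor signals induce, was at 3.35 and 1.27 (2.65-fold, with 2.15 to 5.57 elsewhere). Dusp1, a phosphatase that ends MAP kinase signalling, was at 1.95 and 0.745 (2.61-fold), Fosb at 1.71 and 0.637 (2.69-fold), and Jun at 3.06 and 1.39 (2.21-fold). Jund was at 9.68 and 5.37 (1.80-fold), Zfp36, whose protein destabilises cytokine mRNAs, at 6.86 and 4.57, and Egr1 at 0.937 and 0.665. These 3 stayed under 2.0-fold. Other called genes in the same direction were Gadd45b (150 and 73 UMIs, 4.08-fold), a stress-response gene, and Gem (3.76-fold), Klf4 (3.30-fold), Oasl1 (2.98-fold) and Kdm6b (2.81-fold).

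The difference was also seen per cell. Per B-like cell thinned to 1000 UMIs, the median was 4 immediate early UMIs in the Involution sample and 2 in the Regression sample, against medians of 4 to 8 under the other tags. The list had no UMI in 3.04% of Involution and 13.4% of Regression cells. Thinned Junb was found in 51.0% and 25.2% of B-like cells (interval of the difference -30.6 to -20.9 points), and in 43.6% to 79.0% under the other tags. Thinned Jund was found in 58.5% and 38.3%. Mitochondrial UMIs were 306 and 307 per 10000 in these cells. Cells above the mitochondrial limit had already been left out, so these values do not show whether the samples were handled alike. The part of handling during release from the gland with collagenase in these differences was not tested. Of 30 B cell genes followed through 12 alternative settings, 0 moved by more than 1.5 times. At a clustering resolution of 2.0 the B-like cells fell into 5 clusters. One led by Egr3, Cd83 and Irf4 held 168 Involution and 96 Regression cells, one led by Oasl1 and Ifit3 held 40 and 17, and one led by Cd79b and Ighd held 148 and 495. Genes of the kinds that differ between the samples lead the first 2, so the size of these clusters and the level of their genes cannot be told apart.

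**Figure D2:**
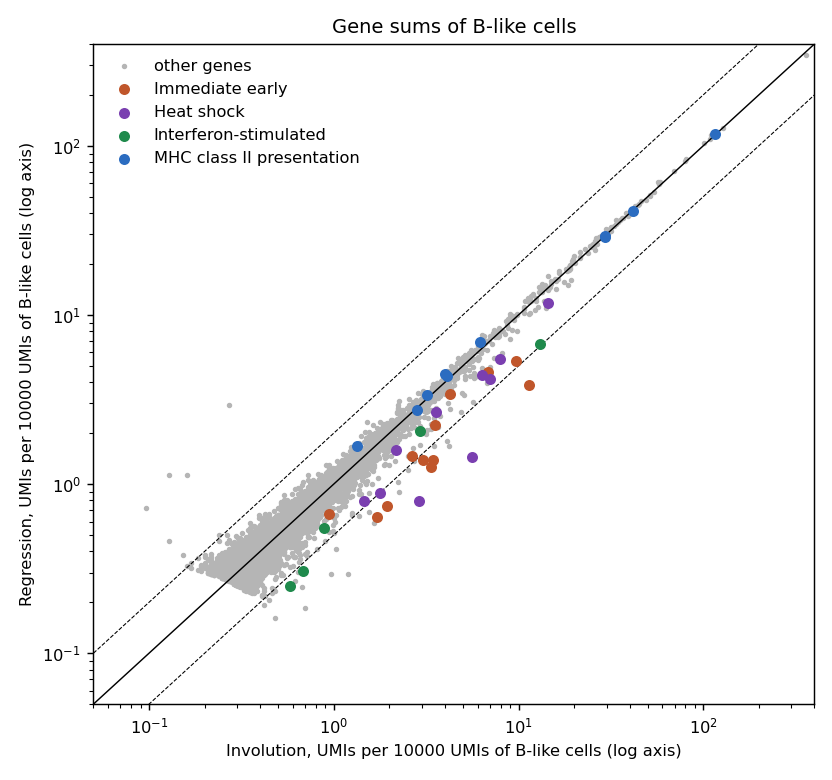
Summed UMIs per 10000 of each tested gene in B-like cells, Involution on the x axis and Regression on the y axis, both log axes, with lines at equal levels and at 2.0-fold. Immediate early, heat shock and interferon-stimulated genes are coloured and lie below the line of equal levels, while MHC class II genes lie along it.

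The heat shock list, chaperones that refold damaged proteins, set the Involution sample apart. All 10 tested members had a ratio below 1, against 45.3% of all tested genes. Of the 10, 3 were past 2.0-fold, and 0.656% of all tested genes were that much higher in the Involution sample. The Involution sample was the highest of the 7 tags in 7 of them, against 7.87% of all tested genes. The sum was 53.3 and 34.0 per 10000, a ratio of 0.64, and the other tags ran from 30.2 to 40.7. Hspa1b, an inducible Hsp70, had 703 and 358 UMIs, or 5.63 and 1.44 per 10000, and was 3.90-fold higher in the Involution sample (3.43 to 4.45). The next highest tag was Lactation at 4.38, from 32 B-like cells, and the other 4 lay between 1.16 and 1.94. Hspa1a was at 2.91 and 0.798 (3.64-fold). It is a near-identical copy of Hspa1b, so UMIs may be split between the 2 genes. Hsp90aa1 was at 7.04 and 4.17 (1.69-fold, with 3.26 to 5.10 elsewhere), and Hsph1 at 1.77 and 0.882 (2.01-fold). Thinned Hspa1b was found in 30.8% and 11.4% of B-like cells. The Regression sample therefore lay near the other tags for heat shock genes and below them for immediate early genes, while the Involution sample lay above them for heat shock genes and among them for immediate early genes.

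**Figure D3:**
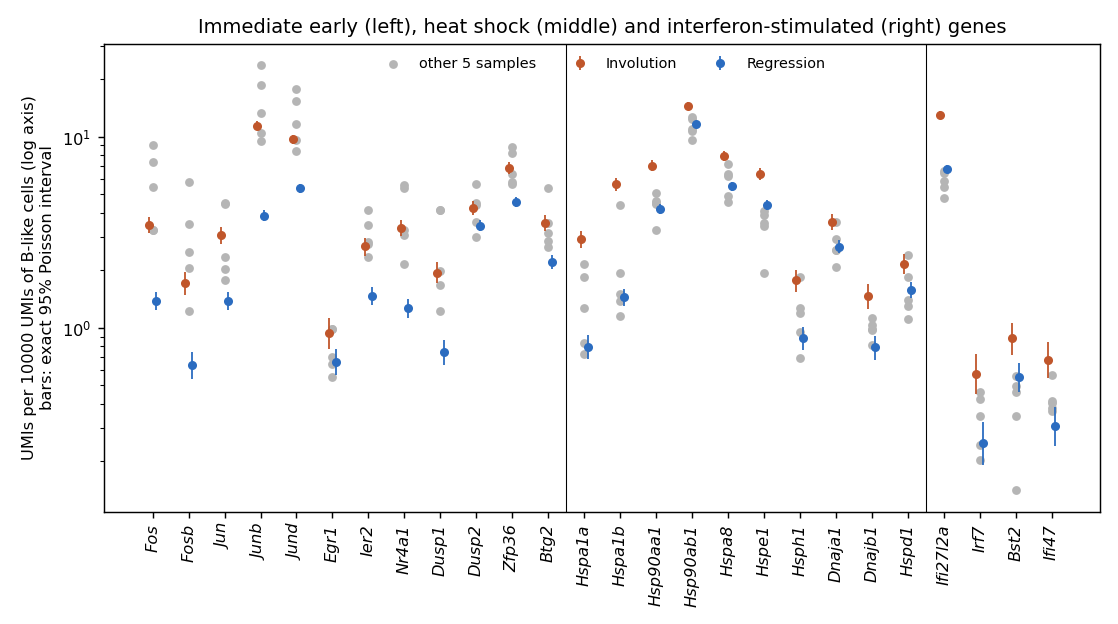
UMIs per 10000 in B-like cells (log axis) for tested members of the 3 lists, 1 interferon-stimulated gene left out, in all 7 tags, with the Involution and Regression samples coloured and the other tags grey. Junb is at 11.4 and 3.86, Hspa1b at 5.63 and 1.44, and Ifi27l2a at 13.02 and 6.77.

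Interferon-stimulated genes, induced by type I or type II interferon, followed the heat shock pattern. All 5 tested members were lower in the Regression sample, 2 past 2.0-fold, and the Involution sample was the highest of the 7 tags in all 5. Of all tested genes, 45.3% had a ratio below 1 and 0.656% were at least 2.0-fold higher in the Involution sample. The Involution sample was the highest of the 7 tags for 7.87% of them. The sum was 20.8 and 11.0 per 10000 (ratio 0.53, 0.50 to 0.56), and the other tags lay between 9.08 and 10.8. Ifi27l2a, the most abundant member, was at 13.02 and 6.77 (1.92-fold, 1.80 to 2.06), with 4.76 to 6.64 under the other tags. Irf7, a transcription factor that amplifies the interferon response, was at 0.577 and 0.25 (2.31-fold) and Ifi47, an interferon-inducible GTPase, at 0.681 and 0.306 (2.22-fold). Thinned Ifi27l2a was found in 57.8% and 39.3% of B-like cells, against 28.3% to 40.6% elsewhere.

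B cell identity genes differed little. MHC class II genes, which present peptide to CD4 T cells, had 0 of 10 past 2.0-fold and a summed ratio of 1.01, with Cd74 at 117 and 118 and H2-Aa at 41.6 and 41.3 per 10000. The naive and follicular list had 5 ratios above and 5 below 1 (sum 0.98), and the B cell receptor signalling list 12 above and 2 below (sum 1.04), both with 0 past 2.0-fold. MHC class I genes had 10 of 11 ratios below 1, against 45.3% of all tested genes, with a sum of 0.84. Of the activation list, 1 of 8 tested genes was past 2.0-fold (Nr4a1) and the sum was 0.64. Cd69, an early activation antigen that holds lymphocytes in tissue, was at 3.78 and 2.52, and Cd83, a surface protein of activated B cells, at 4.27 and 2.78. Of the 9 genes higher in the Regression sample, Slc15a2, a peptide transporter, had 16 and 115 UMIs (3.62-fold, 2.13 to 6.54), within the range of the other tags. Metap1d (2.49-fold), Hdac9 (2.08-fold), Armt1 (2.04-fold) and Ranbp10 (2.04-fold) followed. The other 4 were haemoglobin genes, named after their values were seen, with over 20% of their UMIs in 1 cell and a sum of 0.657 and 5.91 per 10000. Milk protein UMIs in B-like cells, which do not make them, were 11.9 and 12.5 per 10000.

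T cells differed in makeup. In the clusters below, named by leading genes after they were seen, at most 1 of 10 leading genes differed 2.0-fold between the samples within the cluster. The Dapl1/Cd8b1 cluster, with Ccr9, Lef1 and Cd8a among its leading genes, held 256 of 732 T-like cells (35.0%) in the Involution sample and 159 of 648 (24.5%) in the Regression sample, a difference of -10.4 points (-15.2 to -5.61). The other tags had 4.83% to 25.9%. The Lef1/Cd4 cluster, with Tcf7, held 22.4% and 18.1% (-4.35 points, -8.55 to -0.0882). Clusters of other kinds took the larger share of the Regression T-like cells. The Foxp3 cluster, led by the transcription factor of regulatory T cells with Ctla4 and Il2ra, held 39 cells (5.33%, 3.82 to 7.21) and 66 cells (10.2%, 7.97 to 12.8), a difference of 4.86 points (2.04 to 7.79). The Cd40lg/Gzmk cluster, with Icos and Ifng, held 14.6% and 20.5% (5.91 points, 1.89 to 9.96), which is below the 29.2% to 80.1% of the other tags in both samples. The Cd163l1 cluster, marked by Il23r and Il17re and called gamma-delta T-like by its markers, held 11.2% and 14.2% (3.0 points, -0.517 to 6.57), above the 1.81% to 7.16% of the other tags in both. The Ly6c2/Klra6 cluster held 11.5% and 12.5%.

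**Figure D4:**
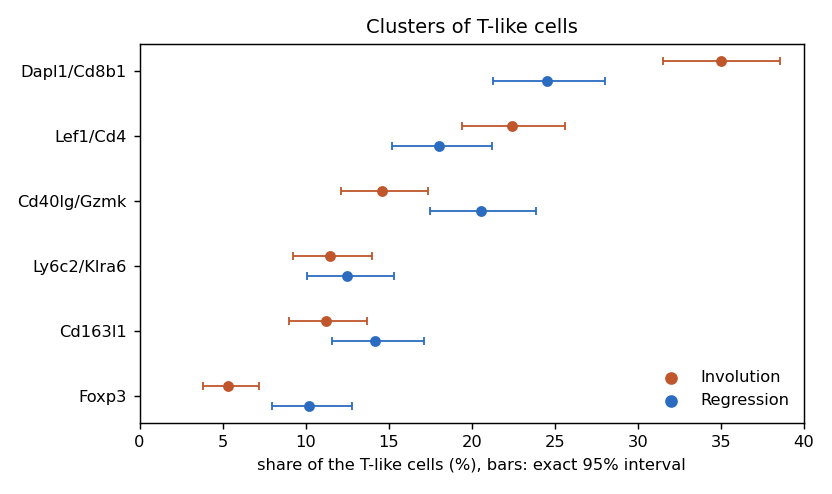
Share of each cluster among the T-like cells (percent, x axis) in the Involution and Regression samples, with exact 95% intervals. The Dapl1/Cd8b1 cluster stands at 35.0% and 24.5%, and the Foxp3 cluster at 5.33% and 10.2%.

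Gene sums over all T-like cells differed by 2.0-fold in few genes. Among 5823 tested genes, 6 (0.103%) were at least 2.0-fold higher in the Regression sample and 11 (0.189%) in the Involution sample. The first count was 16 with an own-tag minimum of 20 and 17 when cells were classed by marker UMIs without clustering. The second was 4 with tags called by HTODemux, a cluster-based tag caller, and 5 when the own tag had to be 5 times the next one. Foxp3 had 39 and 72 UMIs, or 0.154 and 0.332 per 10000 (2.15-fold, 1.44 to 3.26). Within the Foxp3 cluster its level was 3.01 and 2.98 per 10000. The regulatory list had 9 of 9 tested ratios above 1 (38.1% of all tested genes had one below 1), of which Foxp3 was the 1 past 2.0-fold, and a summed ratio of 1.42 (1.33 to 1.51). Il2ra, the high-affinity interleukin 2 receptor chain, was at 0.333 and 0.660 (1.98-fold), above the other tags' range of 0.204 to 0.501. Ikzf2, the transcription factor Helios, was at 1.71 and 3.04 (1.78-fold), and Tnfrsf4, the costimulatory receptor OX40, at 0.261 and 0.498 (1.91-fold). All 6 tested interleukin 17 program genes had ratios above 1, 0 past 2.0-fold, with a sum of 1.26 (1.17 to 1.35). The Regression sample was the highest of the 7 tags in 5 of them, which was so for 9.91% of all tested genes. Ccr6, a chemokine receptor of such cells, was at 0.329 and 0.563 (1.71-fold), against 0.0114 to 0.264 elsewhere. The other genes past 2.0-fold were Trerf1 (2.28-fold), Cep97 (2.21-fold), Spry2 (2.10-fold), Tbc1d4 (2.02-fold) and Gzmb, a granzyme (0.269 and 0.563, 2.09-fold). Cep97 and Trerf1 were also higher within single clusters, Cep97 by 3.08-fold (1.60 to 6.15) and Trerf1 by 3.46-fold (1.43 to 9.20) in the Lef1/Cd4 cluster. Within the Foxp3 cluster Gzmb had 3 and 32 UMIs. The ratio of Gzmb turned below 1 when tags were called with HTODemux, when cells had at least 1000 UMIs and when cells were classed by marker UMIs without clustering. Tbc1d4 (log2 ratio 0.31 by marker UMIs) and Spry2 (0.43 with HTODemux) were also under 2.0-fold in 1 alternative each.

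Interferon-stimulated genes were lower in the Regression T-like cells too. All 11 tested members had a ratio below 1, against 38.1% of all tested genes, 2 were past 2.0-fold, and the sum was 20.1 and 15.2 per 10000 (ratio 0.76, 0.72 to 0.79). The Involution sample was the highest of the 7 tags in 7 of them, which was so for 7.23% of all tested genes. Ifit1, an antiviral RNA-binding protein, had 112 and 44 UMIs, and Usp18, which limits interferon signalling, had 84 and 33 (both 2.18-fold higher in the Involution sample). In the Dapl1/Cd8b1 cluster alone Ifit1 had 54 and 10 UMIs, a ratio of 0.29 (0.13 to 0.58). In the other 5 clusters the ratios were 0.60 to 0.89 and each interval included 1 (0.28 to 1.19 in the Lef1/Cd4 cluster). Iigp1 (2.11-fold), Siglec1 (2.02-fold) and Hspa1a (410 and 175 UMIs, 2.01-fold) were the other nameable genes. Siglec1 was under 2.0-fold (log2 ratio -0.27) when cells were classed by marker UMIs. Of the remaining 6 called genes, 1 is an unnamed transcript and 5, named after their values were seen, had over 20% of their UMIs in 1 cell: the haemoglobin genes Hbb-bs, Hba-a1 and Hba-a2 and the neutrophil genes S100a8 and S100a9. A separate small cluster led by Cxcl10, Ifit1 and Ifit3 held 14 Involution and 3 Regression cells. Immediate early genes in T-like cells had 8 ratios above and 5 below 1 and a sum of 1.03 (1.00 to 1.06). Heat shock genes had 9 of 10 below 1 and a sum of 0.82.

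In the macrophage-like cells, several genes with high levels in the Mmp12/Mmp13 cluster were lower in the Regression sample, while Mmp12 itself was higher (1.17 and 2.07 per 10000). Of 5473 tested genes, 21 (0.384%) were at least 2.0-fold higher in the Involution sample and 17 (0.311%) in the Regression sample. The first count was 42 with HTODemux tags and 13 by marker UMIs, and the second was 32 with doublets kept and 42 as means over cells. The 8 named by size were Mmp2, Trpm2, Dnase1l3, Olfml3, Asb2, Hebp1, Acp5 and Tlr12. Mmp2, a gelatinase that cuts basement membrane collagen, had 97 and 26 UMIs (4.04-fold, 2.60 to 6.49). Dnase1l3, a secreted nuclease that digests DNA of dead cells, was at 2.22 and 0.738 per 10000 (3.01-fold), and Acp5, a lysosomal acid phosphatase, at 2.99 and 1.15 (2.59-fold). Mmp14, a membrane protease that activates Mmp2, was at 0.555 and 0.240 (2.32-fold). The Mmp12/Mmp13 cluster held 61 of 345 and 37 of 361 macrophage-like cells and 506 of the 566 Acp5 UMIs of the Involution sample. Within it the levels still differed: Acp5 was at 9.84 and 5.30 per 10000 (ratio 0.54, 0.45 to 0.64), Dnase1l3 at 6.98 and 3.44 (0.49), and Mmp2 at 1.71 and 0.803 (0.47). With HTODemux tags the log2 ratio over all macrophage-like cells was -2.48 for Acp5 and -2.60 for Dnase1l3, against -1.38 and -1.59 by the tag rule. Since its leading genes differ between the samples, the size of the cluster and the level of its genes cannot be told apart. The Folr2/Ccl8 cluster, with Lyve1 and Cd163, held 44.1% and 52.6% of macrophage-like cells (8.57 points, 1.2 to 15.8), and the Ccl12/Adgre1 cluster 38.3% and 37.1%.

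Genes of alternative activation, the state that interleukin 4 and interleukin 13 induce, were higher in the Regression macrophage-like cells, most of them by less than 2.0-fold. All 9 tested members had ratios above 1, 1 past 2.0-fold, with a sum of 1.30 (1.27 to 1.33) and a median log2 ratio of 0.39. Of all tested genes, 40.8% had a ratio below 1, and 0.311% were at least 2.0-fold higher in the Regression sample. Retnla, a secreted protein often used to mark this state, was at 23.6 and 34.8 per 10000 (1.47-fold), within the other tags' range of 11.5 to 60.0. Clec10a, a sugar-binding receptor, was at 7.98 and 10.5, and Ccl24, an eosinophil-attracting chemokine, at 2.02 and 2.89. Fn1, which encodes the matrix protein fibronectin, had 115 and 430 UMIs, or 0.608 and 2.10 per 10000 (3.46-fold, 2.81 to 4.28), above the 0.105 to 1.12 of the other tags. It was higher in the Folr2/Ccl8 cluster (10 and 105 UMIs) and in the Ccl12/Adgre1 cluster (75 and 296 UMIs). Lyz1, a lysozyme, had 65 and 338 UMIs (4.81-fold), and 1 cell held 58.5% of the Involution UMIs. Without the cell that held the most Lyz1 UMIs on each side, its log2 ratio was 3.36, against 2.26 with it. When cells were classed by marker UMIs, both were under 2.0-fold, with log2 ratios of 0.83 for Fn1 and 0.75 for Lyz1, against 1.79 and 2.26 with clusters. Fn1, Lyz1 and Retnla also lead the separate Retnla/Lyz1 cluster, which held 102 and 100 cells, and the part of such cells in these sums was not tested. Fabp5, a fatty acid carrier, was 2.50-fold higher (1.80 to 3.52), or 0.49 on the log2 scale with a tag minimum of 20. Lpl, the lipase that frees fatty acids, was at 3.57 and 6.73 (1.89-fold), and Ccl8 at 12.0 and 16.3, above the 2.39 to 10.5 of the other tags. The ductal-type list had 7 of 10 ratios below 1 and a sum of 0.83. It did not move as 1 group, since Cx3cr1, the fractalkine receptor, was at 3.03 and 1.72 while Mmp12 was at 1.17 and 2.07.

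Lymphocyte transcripts were also among the genes higher in the Regression macrophage-like cells. Cd2 (2.67-fold), Ms4a1 (2.62-fold), Ablim1 (2.52-fold), Ly6d (2.46-fold) and Trbc2 (2.30-fold) were past 2.0-fold. Trbc2 had a log2 ratio of 0.16 with a tag minimum of 20, and Cd2 one of 0.58 as a mean over cells. The 8 T cell markers summed to 1.95 and 3.51 per 10000 in these cells, against 0.845 to 5.07 under the other tags. The 7 B cell markers summed to 1.57 and 2.82, against 0.607 to 1.71. None of these markers was at 0 in either sample. The share of called doublets, removed before these sums, was 4.17% and 10.1%, and with them kept the number of genes past 2.0-fold higher in the Regression macrophage-like cells was 32 instead of 17. The part of lymphocyte RNA or remaining doublets in the result was not tested.

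Across cell classes, immediate early genes leaned in opposite directions. In macrophage-like cells 15 of 16 tested members had ratios above 1 and 0 were past 2.0-fold, with sums of 75.5 and 86.5 per 10000 (ratio 1.15, 1.12 to 1.17). Of all genes tested in macrophage-like cells, 40.8% had a ratio below 1. The Regression sample was the highest of the 7 tags in 10 of the 16, which was so for 11.5% of all tested genes. The summed list was not highest there: the other tags ran from 64.4 to 88.7 per 10000, with Lactation, at 36 macrophage-like cells, on top. Thinned macrophage-like cells held a median of 5 such UMIs in the Involution sample and 7 in the Regression sample. Medians under the other tags ran from 4 to 7. Junb was at 8.99 and 11.2 in these cells and at 11.4 and 3.86 in B-like cells. In NK-like cells 12 of 13 ratios were above 1 (sum 1.19, 1.12 to 1.26), and in the Retnla/Lyz1 cluster 12 of 14 (sum 1.17, 1.13 to 1.22). Of all tested genes, 48.9% had a ratio below 1 in NK-like cells and 47.2% in the Retnla/Lyz1 cluster. MHC class I genes had 10 of 11 ratios below 1 in macrophage-like cells, as in B-like cells, with a sum of 0.91. Interferon-stimulated genes, lower in the Regression B-like and T-like cells, had a summed ratio of 1.04 (1.01 to 1.08) in macrophage-like cells. These differences between classes were not tested.

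**Figure D5:**
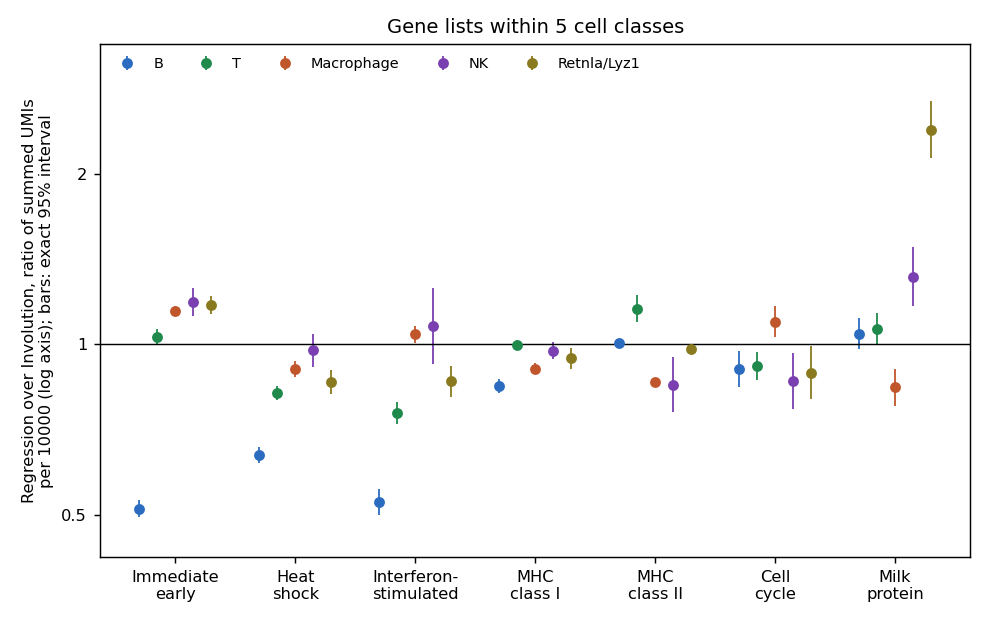
Ratio of summed UMIs per 10000, Regression over Involution (log axis), for 7 gene lists in 5 cell classes, with 95% intervals for counting error. Immediate early genes stand at 0.51 in B-like cells and between 1.03 and 1.19 in the others, and milk protein genes at 2.40 in the Retnla/Lyz1 cluster.

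NK-like cells differed in few genes. Of 1643 tested genes, 4 (0.243%) were at least 2.0-fold higher in the Regression sample and 1 (0.0609%) in the Involution sample. The 1 was Klra3, an inhibitory receptor of the Ly49 family, with 84 and 38 UMIs, or 1.65 and 0.785 per 10000 (2.10-fold, 1.42 to 3.17). Klra genes are close paralogs, so their UMIs can be split. The list of NK receptors and effectors had 12 of 16 tested ratios below 1, against 48.9% of all tested genes, and a sum of 0.83 (0.80 to 0.87). Gzma, a granzyme and its most abundant member, was at 51.7 and 36.0 (44.2 to 70.7 under the other tags), and Prf1, the pore-forming perforin, at 7.21 and 5.49. The log2 ratio of Prf1 turned to 0.09 when cells were classed by marker UMIs. Il7r, the interleukin 7 receptor chain (28 and 80 UMIs, 3.0-fold), Cd28, a costimulatory receptor of T cells (2.15-fold), and Maf (2.08-fold) were higher in the Regression sample. The T cell markers summed to 7.44 and 10.0 per 10000 in these cells and the NK markers to 90.0 and 70.8, and their part in these differences was not tested.

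The Retnla/Lyz1 cluster, myeloid cells without a type name, was alike in size and in most genes. Of 2039 tested genes, 7 (0.343%) were at least 2.0-fold higher in the Regression sample and 5 (0.245%) in the Involution sample. Of these, Asah1, the lysosomal acid ceramidase (116 and 51 UMIs, 2.35-fold higher in the Involution sample), and Glipr2 (33 and 69 UMIs, 2.02-fold higher in the Regression sample) passed the rule that no cell holds over 20% of the UMIs. Milk protein genes, which these cells are not known to transcribe, were higher in the Regression sample in all 5 tested members, 4 past 2.0-fold. Of all tested genes, 47.2% had a ratio below 1. Their sum was 5.83 and 14.0 per 10000 (2.40-fold, 2.14 to 2.70), against 5.62 to 12.1 under the 4 other tags with enough cells. In the Regression sample 1 cell held 65.2% of the UMIs of Wap, whey acidic protein, 55.4% of Glycam1, 33.3% of Csn1s1 and 31.7% of Csn1s2a. Without the cell that held the most UMIs of the gene on each side, the log2 ratio was 0.24 for Wap and 0.51 for Glycam1, against 1.59 and 1.47 with it. For Csn1s2a, at a log2 ratio of 2.24, that removal moved the ratio by no more than 1.5 times. As a mean over cells its log2 ratio was 1.05. The milk protein sums were 7.85 and 6.59 in macrophage-like cells, 8.36 and 8.92 in T-like cells and 11.9 and 12.5 in B-like cells. In NK-like cells they were 9.51 and 12.5 (1.32-fold, 1.17 to 1.49), with all 4 tested members higher in the Regression sample and highest there among the 7 tags. The Regression sample was highest for 18.6% of all genes tested in NK-like cells, and 48.9% of those genes had a ratio below 1.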

How the data were processed

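The values are counts as deposited by the authors, of UMIs for genes and of tag reads or molecules for hash tags, without normalization. Libraries were made with the 10x Genomics 3' v3.1 chemistry, per the labels' protocols. Cell Ranger 6.1.0 and the build mm10 are named in the submitters' processing notes. The deposited matrix of this library holds 21632 barcodes, each with at least 500 UMIs. How reads were matched to tags is not given in the sources used here.

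The cells of all 7 tags were clustered together (scanpy 1.11.5, Python 3.11.15; 2000 variable genes, 30 components, 15 neighbours, Leiden resolution 1.0, 29 clusters) after Scrublet calls at an expected rate of 0.08 were removed. A cluster took a "-like" name when at least 3 markers were found in at least 10% of its cells, the mean standardised marker score was at least 1.0 (2.0 with no marker among its 10 leading genes) and markers of other classes did not outnumber its own among those 10. Clusters without a name are described by leading genes chosen after they were seen.

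Shares have exact Clopper-Pearson intervals and differences Newcombe intervals. UMIs were summed per sample in each class with at least 100 cells in both, given per 10000 UMIs of the class, and compared with exact conditional binomial intervals (scipy 1.17.1). Intervals cover counting error only, and 1 pooled sample a side allows no test. Named genes were the 8 with the largest ratio each way among those past 2.0-fold with at least 100 UMIs over both sums, a UMI in at least 20 cells and at most 20% of UMIs in 1 cell, leaving out receptor variable segments and unnamed transcripts, plus members of marker and pathway lists. The ratios of sums and the intervals were run on simulated counts. These were drawn under the counting model that the intervals assume, without spread between cells or samples. Tag calls, doublet calls, clustering and class names were not part of that run. Members and lists were chosen with earlier results of these data known. HT2 and HT12 carry the names Germ-free and GF on the authors' sheet, and the difference between these names is not explained there. Alternatives were no doublet removal, 3 other tag rules (including HTODemux in Seurat 5.3.0, R 4.3.3), a higher UMI minimum, other resolutions, classes by marker UMIs, TMM scaling, a higher gene minimum, means over cells and removal of the top cell. Results on single genes that may not be named are not reported here.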

Additional observations from a re-analysis of the deposited data

Results flagged for a closer look

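The ratio of summed immediate early UMIs, Regression over Involution, differed between B-like cells and other classes. It was 2.24 times as high in macrophage-like cells, 2.32 times as high in NK-like cells and 2.29 times as high in the Retnla/Lyz1 cluster as in B-like cells. The summed milk protein ratio was 2.86 times as high in the Retnla/Lyz1 cluster as in macrophage-like cells, and in the Regression sample 1 cell held between 31.7% and 65.2% of the UMIs of each milk protein gene that was past 2.0-fold. In each pair the 2 classes went in opposite directions. With 1 pooled sample a side, none of these differences was tested.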

How the results depend on the processing

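No paired analysis was possible because each side is 1 pooled sample. The cause of each shift was not tested, except that a minimum of 300 UMIs tests fewer genes by construction. Of 15.0 points for B-like cells, HTODemux gave 18.3. A tag minimum of 20 gave -13.1 points for T-like cells (-8.11 as reported), 2.89 for macrophage-like (-1.94), 1.21 for plasma-like (0.359), -18.5 for Dapl1/Cd8b1 (-10.4), 16 genes higher in Regression T-like cells (6), and log2 ratios of -0.83 for interferon genes in B-like cells (-0.93) and 0.63 for regulatory genes in T-like cells (0.50). HTODemux gave -4.12 points for macrophage-like cells, -14.1 for Mmp12/Mmp13 (-7.43), 4 genes higher in Involution T-like cells (11) and 42 in macrophage-like cells (21), and log2 ratios of -1.05 for immediate early genes in B-like cells (-0.96) and -0.29 for interferon genes in T-like cells (-0.40). Classes by marker UMIs gave -2.36 points for NK-like (-0.208) and -3.03 for monocyte-like cells (-2.09), 17 genes higher in Regression T-like cells and 13 higher in Involution macrophage-like cells. With doublets kept, 23 genes were higher in Regression B-like cells (9), 7 in Involution T-like cells and 32 in Regression macrophage-like cells (17), and log2 ratios in B-like cells were -0.83 (immediate early), -0.58 (heat shock, -0.65) and -0.83 (interferon). A tag ratio of 5 gave -1.06 for immediate early genes in B-like cells and 5 genes higher in Involution T-like cells. At least 1000 UMIs per cell gave -15.3 points for Dapl1/Cd8b1 and -0.83 for interferon genes in B-like cells. Resolution 2.0 gave 10 and 7 called genes in T-like cells. At 300 UMIs the calls were 2 and 18 in B-like, 0 and 2 in T-like and 2 and 5 in macrophage-like cells (Regression first), and means over cells gave 42 genes higher in Regression macrophage-like cells. Without thinning the differences were -8.14 points for Cd3d and 1.52 for Cdh5. Gzmb in T-like cells, at a log2 ratio of 1.06, was -0.97 with HTODemux, -1.12 at 1000 UMIs and -0.67 by marker UMIs. Of the named genes, 0 in B-like cells moved by more than 1.5 times, and those that did were 5 in T-like cells, 14 in macrophage-like cells, 0 in NK-like cells and 3 in the Retnla/Lyz1 cluster. Classes by marker UMIs give no clusters, and some clusters were not found under some settings, so these had no value.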
